A study of Mus musculus with 17 samples.

Results

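The laminin chain genes and their basement membrane partners were described in mouse neural retinal progenitor cells (mNRPCs), a self-renewing culture raised from the neural retina of adult C57BL/6 mice on dishes coated with Matrigel, itself a basement membrane extract rich in laminin. The group was given as a list of 10 genes, Lama1, Lama2, Lama4, Lama5, Lamb1, Lamb2, Lamc1, Nid1, Nid2 and Hspg2, of 18836 genes listed in at least 1 library, with the collagens left out. A gene that a library did not list was read as 0 there. Poly(A) RNA was sequenced in 17 libraries. One library was the day 0 control, for which the labels give no treatment. The paper describes it as cells cultured in the basic medium and elsewhere refers to values before treatment, so day 0 is not fresh tissue. The other 16, called the cultured libraries below, were 1 library of each of 4 media on each of days 1, 3, 5 and 7. The media were BM (the basic medium, without bFGF or CHIR99021) and B (BM with bFGF, basic fibroblast growth factor). C was BM with CHIR99021, an inhibitor of glycogen synthase kinase 3, and BC was BM with both. According to the paper, the mNRPCs had been isolated and expanded with both bFGF and CHIR99021. The media BM, B and C thus each lack at least 1 factor in which the cells had been raised. No treatment and day was repeated, and nothing says whether the libraries came from separate cultures or animals, so each p-value below rests on departures of single libraries from a model and not on replicate cultures.

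Laminins are the proteins that start a basement membrane, the thin sheet of matrix on which epithelia and neuroepithelia rest. Each laminin is a cross-shaped trimer of 1 alpha, 1 beta and 1 gamma chain. The alpha chain carries the main sites for cell receptors, while the beta and gamma chains complete the coiled rod and the short arms through which trimers join into a network. The nidogens (Nid1, Nid2) bind the gamma-1 chain and bridge laminin to collagen IV, and perlecan (Hspg2) is a large heparan sulfate proteoglycan that binds growth factors, bFGF among them. In the retina, laminins are best known in the inner limiting membrane, at the end feet of Mueller glia, and in Bruch's membrane.

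Total expected counts ran from 17571973 to 19428744 per library, with a median of 18274989, so depth was even. Of the progenitor markers listed, Pax6 (10.7 to 207 FPKM in the cultured libraries), Sox2 (29.1 to 89.9), Six3 (20.4 to 62.9) and Nes (5.73 to 20.9) were present, whereas Rax did not exceed 0.07 FPKM and Lhx2 did not exceed 2.35. The summed levels of the endothelial, microglial, pigment epithelial, photoreceptor, lens and Schwann cell lists stayed at or below 3.24 FPKM in every library. The 5 markers of Mueller glia and astrocytes summed to between 12.98 and 32.7 FPKM, nearly all of it Glul, with Rlbp1, Gfap and Slc1a3 at or below 0.13. The list of 7 pericyte and fibroblast markers, cells that also make laminins and nidogen, summed to 37.2 to 514 FPKM without bFGF and 9.74 to 43.2 with it, through Acta2, Pdgfrb, Col1a1 and Dcn, while Rgs5, Cspg4 and Lum did not exceed 0.10. Its part in the bFGF differences below was not tested. In such bulk libraries, fewer cells of a type and less RNA per cell cannot be told apart.

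Promoter windows of 300 bases were found in RefSeq (GRCm38.p6) for 6 of the 10 genes, and 4 of them are shown because the results turn on the balance of Lama2 to Lama5 among the alpha chains and of Lamb2 to Lamb1 among the beta chains. They lie at chr10:27616893-27617192 (minus strand), chr2:180225810-180226109 (minus strand), chr12:31265043-31265342 (plus strand) and chr9:108479612-108479911 (plus strand). Each is printed 5′ to 3′ in the direction of the gene, with every GC box (GGGCGG on either strand) in capitals.
Lama2: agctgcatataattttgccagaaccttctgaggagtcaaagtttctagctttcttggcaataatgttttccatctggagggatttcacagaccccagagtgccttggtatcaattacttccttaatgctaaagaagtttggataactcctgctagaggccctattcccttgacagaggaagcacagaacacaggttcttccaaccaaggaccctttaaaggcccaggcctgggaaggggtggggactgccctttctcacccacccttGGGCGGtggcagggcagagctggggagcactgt
Lama5: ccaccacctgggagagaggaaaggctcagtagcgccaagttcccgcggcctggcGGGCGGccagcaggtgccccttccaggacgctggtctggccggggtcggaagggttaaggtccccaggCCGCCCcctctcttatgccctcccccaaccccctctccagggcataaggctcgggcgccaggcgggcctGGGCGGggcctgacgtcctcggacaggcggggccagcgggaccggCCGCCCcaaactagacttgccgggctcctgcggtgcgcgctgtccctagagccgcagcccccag
Lamb1: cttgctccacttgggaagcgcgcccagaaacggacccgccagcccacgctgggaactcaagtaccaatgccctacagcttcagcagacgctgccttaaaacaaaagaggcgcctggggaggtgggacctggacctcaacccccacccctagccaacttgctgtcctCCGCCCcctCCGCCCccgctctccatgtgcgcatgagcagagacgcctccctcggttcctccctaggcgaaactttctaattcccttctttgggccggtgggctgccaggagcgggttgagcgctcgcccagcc
Lamb2: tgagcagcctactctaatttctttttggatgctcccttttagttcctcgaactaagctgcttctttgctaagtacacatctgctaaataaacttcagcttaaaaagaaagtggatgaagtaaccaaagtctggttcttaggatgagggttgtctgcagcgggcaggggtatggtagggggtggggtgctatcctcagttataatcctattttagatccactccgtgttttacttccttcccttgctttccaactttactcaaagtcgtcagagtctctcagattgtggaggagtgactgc
The windows do not lie alike on the annotated genes. The minus-strand Lama2 gene starts at position 27617191, so nearly all of its window is inside the gene. The Lama5, Lamb1 and Lamb2 windows span the annotated starts (180225904, 31265146 and 108479847). The windows also differed in base composition within each pair. The Lama5 window was 72.7% G or C with 24 CG dinucleotides and 4 GC boxes, and the Lama2 window 50.3% with 1 CG dinucleotide and 1 GC box. The Lamb1 window was 63.7% G or C with 18 CG dinucleotides and 2 GC boxes, and the Lamb2 window 44.0% with 4 CG dinucleotides and no GC box. Over all 32817 promoter windows of this length, the medians were 52.7% and 7 CG dinucleotides, and 35.6% held a GC box. The windows of Nid1 and Hspg2, not shown, held 1 and 5 GC boxes. An AP-1 motif (TGANTCA, in 7.81% of all windows), a TCF/LEF motif (CTTTGAT, in 3.73%) and a TATA box (TATAAA, in 13.6%) were searched on both strands, did not overlap the GC box, and had no match in any of the 6 windows, which says only that these letters are absent there.

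Levels are given as FPKM, which is scaled by transcript length and library total and so allows genes to be set side by side. By the median over the 16 cultured libraries the order was Lamb1 (153 FPKM), Lama5 (135), Hspg2 (116), Nid1 (107), Lamc1 (89.2), Lamb2 (30.65), Lama2 (26.6), Lama4 (1.42), Lama1 (0.03) and Nid2 (0). The first 5 exchanged places from library to library, Lama5 and Hspg2 ranking anywhere from 1 to 4 and Nid1 and Lamc1 from 3 to 5, and Lamb2 and Lama2 exchanged ranks 6 and 7, so neighbours within these 2 sets were not separated. Lama4 ranked 8 throughout. The chains of laminin alpha-5, beta-1 and gamma-1 were thus the main ones by transcript, together with perlecan and Nid1.

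**Figure D1:**
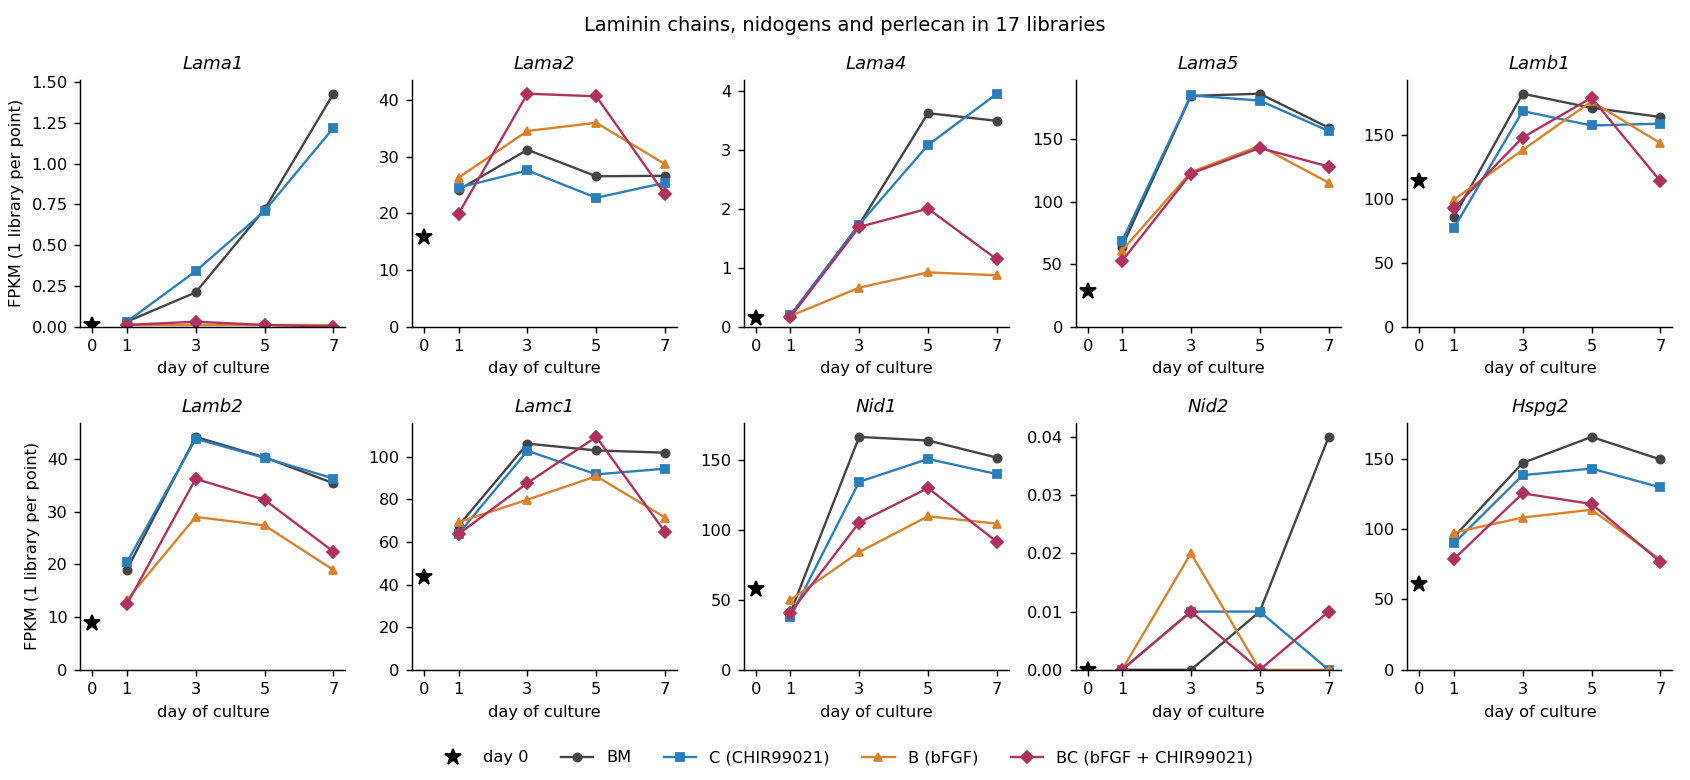
FPKM (vertical axis, a separate linear scale from 0 in each panel) of the 10 genes against day of culture, with 1 library per point, 1 line per medium and a star for day 0. Lama1 leaves 0 only without bFGF and reaches 1.43, while Lama2 on days 3 and 5 is highest in the media with bFGF.

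Among the alpha chains, Lama5 encodes the chain of mature epithelial basement membranes. It was listed at 28.3 FPKM on day 0. On day 1 it stood at 64.0 (BM), 68.4 (C), 60.8 (B) and 52.5 (BC). On day 3 the values were 185 in both media without bFGF, 124 in B and 122 in BC. As a difference in FPKM, the step from day 1 to day 3 was therefore the largest between sampled days in each medium. As a ratio this did not hold in B. The media without bFGF stood higher. On day 5 it was at 186, 181, 145 and 143, and on day 7 at 159, 156, 115 and 128 in BM, C, B and BC. On each day both libraries without bFGF were above both with bFGF as deposited, but this order does not hold after scaling for composition, as described below.

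Lama2 encodes the alpha-2 chain of merosin, the laminin of muscle and peripheral nerve. It was at 15.8 FPKM on day 0 and at 24.1, 24.5, 26.3 and 19.9 on day 1 in BM, C, B and BC. On day 3 BM and C stood at 31.2 and 27.6, and B and BC at 34.55 and 41.1. On day 5 BM and C stood at 26.55 and 22.75, and B and BC at 36.0 and 40.7. On these 2 days both bFGF libraries exceeded both others. On day 7 the values were 26.6, 25.4, 28.7 and 23.35, and the media overlapped again.

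Lama1 encodes the alpha-1 chain of the earliest embryonic laminin and of the inner limiting membrane. It was near 0 on day 0 (0.01 FPKM, an expected count of 1) and on day 1 (counts of 4, 4, 1 and 1 in BM, C, B and BC). In BM its count was 36 on day 3, 127 on day 5 and 252 on day 7 (0.21, 0.72 and 1.43 FPKM). In C it was 58, 125 and 217 (0.34, 0.71 and 1.22 FPKM). With bFGF the count did not exceed 3 in any library and the gene was not listed in BC on day 7. It was thus detected above a handful of reads only from day 3 and only without bFGF, at levels that were low beside the other alpha chains. Its mean FPKM was under the minimum of 1 for the main test. In the alternative without that filter, edgeR's quasi-likelihood test gave a log2 difference with bFGF of -5.37 ± 0.51 (SE, adjusted p = 1e-05), a size that depends on the prior count because the bFGF libraries hold so few reads.

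Lama4 encodes the alpha-4 chain, found around vessels and in mesenchyme. It was at 0.14 FPKM on day 0 and between 0.16 and 0.19 on day 1. On day 3 it was at 1.73 in both BM and C, 0.66 in B and 1.69 in BC. On day 5 it was at 3.62, 3.08, 0.92 and 2, and on day 7 at 3.49, 3.95, 0.87 and 1.14 in BM, C, B and BC. B was the lowest medium from day 3 on, and BC lay near BM and C on day 3 but near B on day 7. The gene passed the minimum mean FPKM of 1 only through its libraries without bFGF, where its mean was 2.25 FPKM, against 0.95 with bFGF. The endothelial markers summed to 0.12 to 1.34 FPKM without bFGF and 0.03 to 0.20 with it. Of these, Kdr reached 1.27 FPKM, while Pecam1, Tek, Emcn and Cdh5 did not exceed 0.09. The pericyte and fibroblast markers summed to 37.2 to 514 FPKM without bFGF and 9.74 to 43.2 with it. Whether either bears on Lama4 was not tested.

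Of the beta chains, Lamb1, the beta-1 chain of most early laminins, was at 114 FPKM on day 0. It ranged from 77.0 to 99.2 on day 1 and from 114 to 182 on days 3 to 7. As deposited, both of its bFGF libraries were above both others on days 1 and 5 and below them on days 3 and 7. Lamb2, the beta-2 chain of the neuromuscular junction, the glomerulus and the retina, was at 8.86 FPKM on day 0. On day 1 BM and C stood at 19 and 20.4, and B and BC at 13.3 and 12.4. On day 3 it was at 44.2, 43.85, 29.0 and 36.3, on day 5 at 40.3, 40.25, 27.4 and 32.3, and on day 7 at 35.4, 36.3, 18.96 and 22.45 in the order BM, C, B, BC. Both bFGF libraries stood below both others on each of the 4 days as deposited.

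Lamc1, the gamma-1 chain shared by most laminins and the one that nidogen binds, was at 43.5 FPKM on day 0, between 63.7 and 69.2 on day 1 and between 64.6 and 109 on days 3 to 7. Nid1, the main nidogen, was at 58.05 FPKM on day 0 and lower in each day 1 library (40.65 and 37.5 in BM and C, 49.9 and 40.8 in B and BC). On day 3 it was at 166, 134, 84.1 and 105, on day 5 at 164, 151, 109.65 and 129.8, and on day 7 at 152, 139.8, 104 and 91.4 in the same order. The libraries with bFGF were the 2 lowest from day 3 on and the 2 highest on day 1. Nid2 was listed in 7 libraries with at most 4 reads and 0.04 FPKM, so no difference was detectable at this depth. Hspg2 was at 61.2 FPKM on day 0 and between 78.6 and 97.5 on day 1. On day 3 BM and C stood at 147 and 138, and B and BC at 108 and 125. On day 5 the same media stood at 165, 143, 114 and 118, and on day 7 at 149, 129.6, 78.1 and 76.7, with both bFGF libraries below both others on each of these days.

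The chain make-up was read from sums over the whole family, chains outside the 10 genes included, because ratios within a library do not depend on how libraries are scaled. Lama5 made up 62.7% of the summed alpha chain FPKM on day 0 and between 69.1% and 84.1% on days 1 to 7. Lama2 made up 35.0% on day 0, between 25.9% and 29.9% on day 1, and on days 3 to 7 between 10.6% and 13.5% without bFGF and between 14.9% and 23.5% with it. Lamb1 made up 92.7% of the beta chains on day 0 and at least 79.1% in every cultured library, and Lamc1 made up at least 89.1% of the gamma chains. The summed alpha chains stood at 0.93 times the gamma chains on day 0, at 1.08 to 1.36 times on day 1 and at 1.63 to 2.26 times from day 3 on. The alpha chains thus went from below to above the gamma chains in each medium.

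The ratio of Lama2 to Lama5, picked after the values were seen and so given with no test, was 0.56 on day 0. On days 3 to 7 it lay between 0.13 and 0.17 without bFGF and between 0.18 and 0.34 with it. Set in pairs of libraries that differ only in bFGF, all 8 pairs had the higher ratio with bFGF, by 0.61 ± 0.44 on the log2 scale (SD, n = 8 pairs, lowest 0.08). The ratio of Lamb2 to Lamb1, also picked afterwards, was 0.08 on day 0. On days 1 to 7 it was 0.22 to 0.26 without bFGF and 0.13 to 0.24 with it. It was lower with bFGF in 8 of 8 pairs, with a log2 difference of -0.50 ± 0.31 (SD), and higher with CHIR99021 in 8 of 8 pairs, by 0.20 ± 0.18, although by only 0.0042 in the pair with the smallest difference. By contrast the ratio of Nid1 to Lamc1 had no common direction, being lower with bFGF in 6 of 8 pairs (-0.16 ± 0.29), and so had that of Hspg2 to Lamc1 (lower in 6 of 8, -0.21 ± 0.22). Pairs of the same day share no library, but the 4 days of a medium need not be independent.

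**Figure D2:**
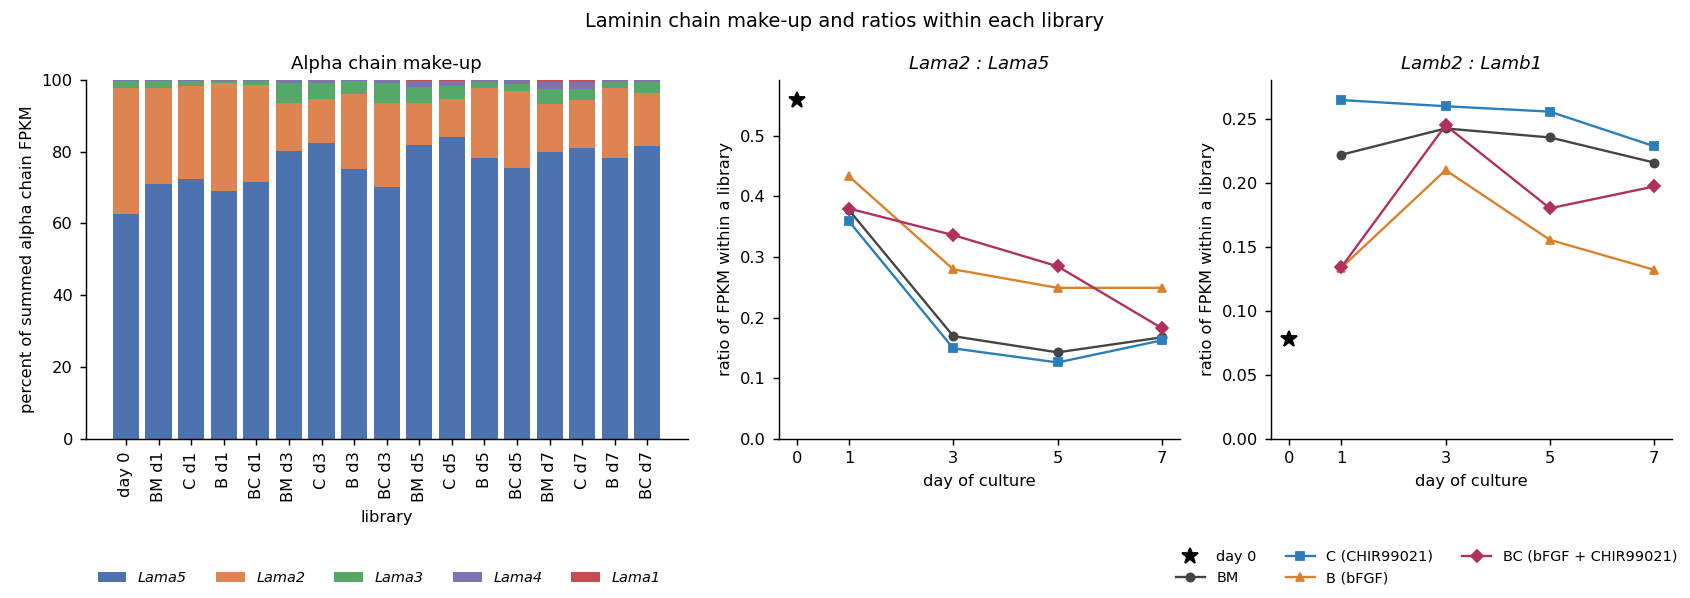
Left, the share of each alpha chain in the summed alpha chain FPKM (percent, stacked bars, 1 per library, d for day). Centre and right, the ratio of Lama2 to Lama5 and of Lamb2 to Lamb1 within each library against day of culture, with 1 line per medium and a star for day 0; the lines with bFGF lie above the others at the centre and, for the same CHIR99021 condition, below them at the right.

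What bFGF changed was tested with edgeR's quasi-likelihood test on expected counts, with p-values adjusted by Benjamini and Hochberg's method across 11272 genes whose average FPKM reached 1, a filter that 8 of the 10 genes passed. Over days 1 to 7, 3 of the 8 were called at an adjusted p under 0.05, where 68.4% of all tested genes were called. Lama2 was higher (log2 difference 0.52 ± 0.13, SE, adjusted p = 0.0042), and Lama4 (-0.75 ± 0.22, adjusted p = 0.0089) and Lamb2 (-0.28 ± 0.08, adjusted p = 0.0099) were lower. That is 1 of 8 higher against 34.6% of all tested genes and 2 of 8 lower against 33.9%. The other 5 lay between -0.11 (Hspg2) and 0.22 (Lamb1). Lama4 passed the filter only through the libraries without bFGF (mean 2.25 FPKM, against 0.95 with it). Its calls as lower with bFGF, here and on single days, are therefore no separate support for a difference. The call of Lamb2 was lost without the day 1 libraries (-0.20), and those of Lama2 and Lama4 were kept with any single library left out, although that of Lama4 was lost after quantile normalization (-0.17). Without B of day 3, Lamb1 was called as well (0.27).

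These directions depend on how the libraries are scaled. TMM, the scaling used in the test, gave factors of 0.754 to 0.816 to the 4 libraries with bFGF on days 5 and 7 and of 1.015 to 1.13 to the rest. In the FPKM as deposited, the median of all tested genes was lower with bFGF by a log2 difference of -0.25 over days 1 to 7 and of -0.48 on day 7. On that scale limma called 5 of the 8 genes lower over days 1 to 7 (Lama4, Lama5, Lamb2, Nid1 and Hspg2) and none higher. It called 5700 of all 11272 tested genes lower and 2267 higher. The Lama2 difference in limma was 0.22 ± 0.11 (adjusted p = 0.091). The median difference of the 8 was -0.08 after TMM, beside -0.0023 for all tested genes, and -0.37 as deposited, beside -0.25. After TMM the pairs of libraries put Lama5 higher with bFGF in 5 of 8 and lower in 3, against 0 and 8 as deposited, whereas Lama1 was lower in 8 of 8 on both scales and Lamb2 in 7 of 8 after TMM and 8 of 8 as deposited.

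Day by day, the differences with bFGF changed members. On day 1, 2 of the 8 genes were called, where 10.7% of all tested genes were. Lamb1 was at 0.32 ± 0.09 (adjusted p = 0.044) and Lamb2 at -0.53 ± 0.11 (adjusted p = 0.011). The Lamb1 call was lost with any 1 of 10 libraries left out, each day 1 library among them, and with 6 of the other settings, and the Lamb2 call without BM or BC of day 1 (-0.56 and -0.45). On day 3, 4 of 8 were called against 50.4% of all. Lama2 was higher (0.47 ± 0.13, adjusted p = 0.011), and Lama5 (-0.49 ± 0.10, adjusted p = 0.0017), Lamb2 (-0.34 ± 0.10, adjusted p = 0.017) and Nid1 (-0.56 ± 0.14, adjusted p = 0.0047) were lower. Lama5 kept its day 3 call with each library left out. The day 3 call of Lama2 was lost as deposited (0.35, limma, adjusted p = 0.055) and without C (0.42) or BC (0.28). Those of Lamb2 (-0.28 and -0.23) and Nid1 (-0.43 and -0.36) were lost without BM or B of that day. As deposited, 5 of 8 genes were called on day 3 and all were lower, where 3596 of all 11272 tested genes were lower and 2371 higher. Without BC of day 3, Lama4 stood at -1.18 and was called, against -0.52 ± 0.32 with it (adjusted p = 0.19), and Lamb1 (-0.29) and Hspg2 (-0.35) were also called. Lamc1 was called on day 3 (-0.22) without B or BC of day 5.

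On day 5, 4 of 8 genes were called against 75.8% of all tested genes. Lama2 stood at 1.07 ± 0.13 (adjusted p = 1.2e-05), its largest bFGF difference, Lamb1 at 0.56 ± 0.09 (adjusted p = 0.00013), Lamc1 at 0.49 ± 0.10 (adjusted p = 0.00092) and Lama4 at -0.82 ± 0.31 (adjusted p = 0.027). As deposited, Lama2 was still called (0.62 ± 0.14), but Lamb1 (0.11) and Lamc1 (0.04) were not, and quantile normalization turned both (-0.10 and -0.03). As deposited, 5 genes were called lower on day 5, among them Hspg2 (-0.41), Lama5 (-0.35), Lamb2 (-0.43) and Nid1 (-0.39), none of which was called after TMM. Of all 11272 tested genes, 6320 were called lower and 2401 higher as deposited on that day. The Lama4 call was lost after quantile normalization (-0.08) and without BM (-0.46) or B (-0.45) of that day. On day 7, 4 of 8 were called against 78.4%. Lama2 stood at 0.53 ± 0.13 (adjusted p = 0.0026), Lama4 at -1.35 ± 0.31 (adjusted p = 0.0016), Lamb2 at -0.25 ± 0.11 (adjusted p = 0.045) and Hspg2 at -0.30 ± 0.12 (adjusted p = 0.03). As deposited, Lama2 stood at -0.01 ± 0.14 on day 7 and was not called, while the other 7 were all lower and called, from -0.33 (Lamb1) to -1.24 (Lama4). On that scale 6600 of all 11272 tested genes were called lower on day 7 and 2479 higher. Quantile normalization also ended the day 7 call of Lama2 (0.29), and fitting day 7 alone those of Hspg2 (-0.33) and Lamb2 (-0.27). The day 7 call of Hspg2 was lost without BM (-0.25) or B (-0.23), that of Lamb2 without the filter (-0.25) or without BM (-0.23), C (-0.31) or B (-0.13), and those of Lama2 and Lama4 were kept with any library left out. Lama5 was called on day 7 without B of that day (0.30), and Lamb1 without BC of day 3 (0.20) or day 7 (0.30).

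The change of the bFGF difference from day 1 to day 7 was called for 1 of 8 genes, against 65.4% of all tested genes. This was Lama2, whose difference rose by 0.54 ± 0.19 (adjusted p = 0.023). It was 0.08 ± 0.20 as deposited, where it was not called, and the call was also lost after quantile normalization (0.36), at a minimum mean FPKM of 5 (0.45) and without C or BC of day 1 or BM or B of day 7 (0.38 to 0.54). Lama4 had the largest estimate, -1.30 ± 0.64 (adjusted p = 0.09), with an error to match its low counts, and was called without BC of day 3 (-1.29). Lama5 (0.45 in both) and Lamb2 (0.41 and 0.40) were called without B of day 1 and without B of day 7.

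**Figure D3:**
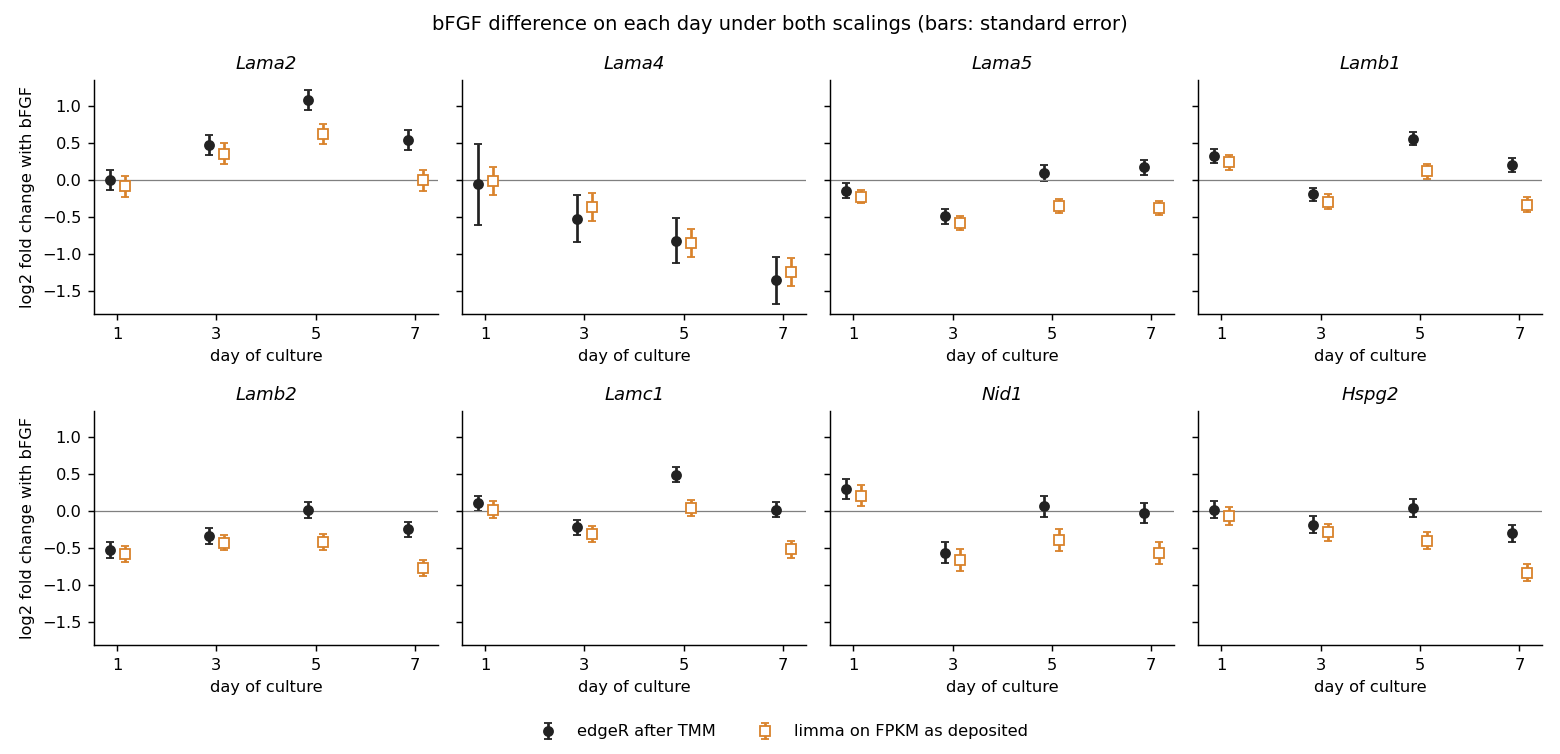
Log2 fold change with bFGF on each day (vertical axis) for the 8 genes tested, as edgeR gave it after TMM (filled circles) and as limma gave it on log2(FPKM + 1) as deposited (open squares), with standard errors. On days 5 and 7 the squares fall below the circles by more than a standard error for each gene but Lama4.

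Levels on day 7 were compared with those on day 1 in the same fits. Between day 1 and day 7 without bFGF, 7 of 8 genes were called, all higher, where 63.8% of all tested genes were called and 32.3% were higher. Lama4 rose by 4.29 ± 0.39 on the log2 scale (adjusted p = 1.7e-06), Nid1 by 1.87 ± 0.14 (adjusted p = 3.9e-07), Lama5 by 1.23 ± 0.10 (adjusted p = 8.4e-07), Lamb1 by 0.97 ± 0.09, Lamb2 by 0.84 ± 0.11, Hspg2 by 0.58 ± 0.12 and Lamc1 by 0.56 ± 0.10. Lama2 stood at 0.07 ± 0.13 (adjusted p = 0.66). With bFGF, 7 of 8 were again called and higher, against 75.3% called and 35.8% higher among all tested genes. Here Lama4 rose by 3.00 ± 0.43, Lama5 by 1.55 ± 0.10, Nid1 by 1.55 ± 0.14, Lamb2 by 1.12 ± 0.11, Lamb1 by 0.85 ± 0.09, Lama2 by 0.61 ± 0.13 and Lamc1 by 0.47 ± 0.10, and Hspg2 stood at 0.26 ± 0.12 (adjusted p = 0.059), a difference that was called without B of day 1 (0.37) or day 3 (0.24) or BC of day 3 (0.26). As deposited, 5 of the 7 rises with bFGF kept their call, and Lamc1 (0.03) and Lama2 (0.17) did not, while Hspg2 stood at -0.17. On that scale 2453 of all 11272 tested genes were called higher with bFGF and 6273 lower. The rises without bFGF kept their calls as deposited, where 3695 genes were called higher and 3420 lower. Lama4, at 0.16 to 0.19 FPKM on day 1, passed the filter only through later libraries. Its calls as higher on day 7, counted in both results above, are therefore no separate support for a rise. On log2(FPKM + 1) as deposited its differences were 1.99 ± 0.19 without bFGF and 0.77 ± 0.19 with it. Without bFGF the pericyte and fibroblast list summed to 37.2 to 73.4 FPKM on day 1 and 313 to 465 on day 3. It then summed to 266 to 427 on day 5 and 348 to 514 on day 7. With bFGF the list summed to 18.3 to 24.8 on day 1 and 28.7 to 43.2 on day 3. It then summed to 11.8 to 17.2 on day 5 and 9.74 to 10.9 on day 7. Its part in the changes with time was not tested.

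Against day 0, which is 1 library, no test was possible. On day 1 the FPKM + 1 of 2 of the 8 genes was at least doubled in BM (7.15% of all tested genes) and in C (7.06%), of 1 in B (3.71%) and of 0 in BC (3.49%). Lamb1 and Nid1 were below their day 0 level in all 4 media. On day 7 the numbers were 6 of 8 in BM (21.1%) and in C (21.5%), and 2 of 8 in B (11.9%) and in BC (12.1%), and the 8 genes all stood at or above day 0. Lama5 was at 5.62 times its day 0 FPKM in BM and 4.07 times in B, and Lamb2 at 3.998 and 2.14 times.

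CHIR99021 gave no call in this group. Over days 1 to 7 edgeR called 0 of 8 genes, against 0.337% of all tested genes (38 genes, 1126 at an unadjusted p under 0.05; DESeq2 called 281 and none of the 8). Estimates ran from -0.09 ± 0.10 for Lamb1 to 0.36 ± 0.22 for Lama4, and each was within 2 standard errors of 0. For Lama5 the estimate was 0.00 ± 0.11, and for Lamb2 0.11 ± 0.08. Nor was an interaction of bFGF with CHIR99021 called for any of the 8, against 0.00887% of all tested genes (1 gene, 178 at an unadjusted p under 0.05; DESeq2 called 5 and none of the 8). With standard errors of 0.17 to 0.40, interactions of moderate size could not have been detected.

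Among laminin chains outside the 10 genes, Lamb3 and Lamc3 did not exceed 0.24 FPKM. Lama3, the alpha-3 chain of hemidesmosomes, was lower with bFGF over days 1 to 7 (-0.83 ± 0.15, adjusted p = 0.00063) and in 8 of 8 pairs, with 1.44 to 12.8 FPKM without bFGF and 0.73 to 9.42 with it. Of 14 other basement membrane components, 7 were tested. Of these, 2 were higher and 1 lower, beside 34.6% and 33.9% of all tested genes. Fbln1, a fibulin, was higher by 1.98 ± 0.45 (adjusted p = 0.0022), with medians of 6.03 FPKM without and 19.6 with bFGF. Fbln2 was higher by 0.98 ± 0.26, but in only 5 of 8 pairs and lower in 3. Its ranges overlapped, 35.2 to 227 FPKM without bFGF and 57.35 to 245 with it. Ntn4, a netrin that binds laminin gamma chains and disturbs the network, was lower (-1.56 ± 0.26), from a median of 75.1 to 17.1 FPKM. Agrn, Sparc, Tinagl1 and Vwa1 did not pass the test.

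Laminin receptors link these chains to the cytoskeleton. Of 11 receptor genes 8 were tested, and 6 were higher and 2 lower with bFGF over days 1 to 7, beside the 34.6% and 33.9% of all tested genes. Itga7 (1.22 ± 0.16, adjusted p = 0.00012) and Itga6 (1.18 ± 0.13), alpha subunits of laminin-binding integrins, were higher in 8 of 8 pairs. Itga6 ran from 21.2 to 47.5 FPKM without bFGF and from 39.2 to 67.8 with it. Itgb4, the partner of Itga6 in hemidesmosomes, was higher by 0.99 ± 0.15. Bcam, Itga3 and Itgb1 were also higher, Itgb1 by 0.26 ± 0.10, which as deposited became -0.04. Dag1, which encodes dystroglycan, the main receptor for laminin outside the integrins, was lower (-0.83 ± 0.14), at 64.4 to 155 FPKM without and 29.0 to 74.7 with bFGF and in 8 of 8 pairs. Cd151, a tetraspanin that partners laminin-binding integrins, was lower as well (-0.27 ± 0.08). Itga3 was the only gene of the 4 lists that edgeR called for CHIR99021, lower by a log2 difference of -0.74 ± 0.12 (adjusted p = 0.036), with 108 to 211 FPKM with and 187 to 393 without it.

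Dystroglycan binds laminin through a sugar chain that a set of enzymes builds. Of 12 such genes 11 were tested. With bFGF over days 1 to 7, 9 were lower and 1 was higher, beside 33.9% and 34.6% of all tested genes. Pomgnt2 (-1.55 ± 0.43, adjusted p = 0.0067) and Pomk (-1.47 ± 0.34, adjusted p = 0.0026), which act early on the chain, were among those lower. Pomgnt1 was lower as well (-0.88 ± 0.20). Pomgnt2 had a median of 12.85 FPKM without bFGF and 3.985 with it, and Pomk 8.13 and 2.525. Pomt1 was higher by 0.25 ± 0.07, and as deposited stood at -0.03. On day 1 none of the 11 was called, where 10.7% of all tested genes were. On day 7, 10 were lower and 1 was higher, beside 39.6% and 38.8% of all tested genes. The median difference of the 11 on day 7 was -1.25, beside -0.01 for all tested genes. These differences lie on the same libraries as those of the chains, and whether the 2 are connected was not tested.

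**Figure D4:**
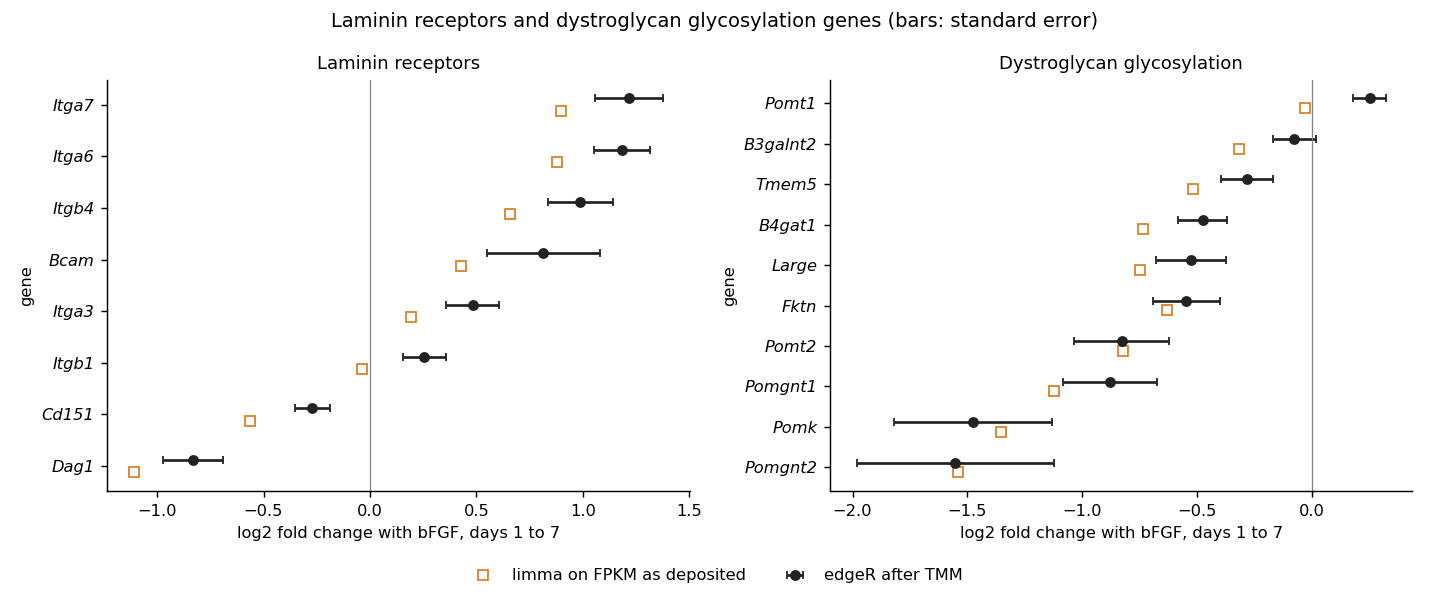
Log2 fold change with bFGF over days 1 to 7 (horizontal axis) of the laminin receptors (left) and 10 of the dystroglycan glycosylation genes (right) that were tested, after TMM with standard errors (filled circles) and as deposited (open squares). Integrin genes lie to the right of 0 after TMM, and Dag1 and 9 of the 10 glycosylation genes to its left.

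The gene whose log2(FPKM + 1) followed each member most closely over the 17 libraries was sought among 11250 genes outside the group whose average FPKM reached 1, as a description only, since the libraries share treatments and days. Lama1 was followed by Dusp15 (r = 0.99), Lamb2 by Stat3 (0.99), Lama5 by Ssh3 (0.99), Lama4 by Serpina3n (0.98), Hspg2 by Mllt6 (0.97), Lamc1 by Cyp4f17 (0.97), Nid1 by Hist1h1c (0.96), Lama2 by Glg1 (0.93), Lamb1 by Maea (0.93) and Nid2 by Acvr1 (0.69). Within the group, Lamb1 and Nid1 (0.95) and Lama5 and Lamb2 (0.94) lay closest together, and Lama1 and Lama2 were the only pair below 0 (-0.12).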

How the data were processed

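Bulk poly(A) RNA-seq of mNRPCs comprised 17 libraries. Per gene, the authors deposited an expected count (a read estimate, not always whole) and an FPKM value. The submitters' processing notes name Bowtie2, RSEM and mm10, whereas the methods of the study name eXpress for quantification, and program versions are not given in the sources used here. Expected counts were rounded and tested in edgeR 4.0.16 (TMM, quasi-likelihood, false discovery rate threshold 0.05 by Benjamini and Hochberg) where the average FPKM of the fitted libraries reached 1. Models held bFGF, CHIR99021 and day, then their interaction, or bFGF within each day with CHIR99021. Residual degrees of freedom were 10, 9 and 7, so the error was the departure of single libraries from these models, with a biological coefficient of variation of 24.7%, 25.4% and 10.0%. The script was tested on simulated data. Alternatives were DESeq2 1.42.0, DESeq2 size factors, no filter, a minimum of 5, limma 3.58.1 on log2(FPKM + 1) and log2(FPKM + 0.1) as deposited and after quantile normalization, fits without day 1 or of day 7 alone, and leaving out each library. The members and gene lists were chosen with earlier results of these data known. The 10 members were described, up to 4 genes per list with the largest called bFGF difference were named, with genes singled out by a small count, and the closest gene to each member. Some items are not reported here. The ratios between members were chosen after their values were seen. Gene loci and promoters came from RefSeq, GRCm38.p6.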

Additional observations from a re-analysis of the deposited data

Results flagged for a closer look

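Lama2 was marked because its bFGF difference itself differed between days in a tested contrast. The bFGF difference of Lama2 was larger on day 7 than on day 1 by 0.54 ± 0.19 on the log2 scale (SE, edgeR, adjusted p = 0.023), with Lama2 at 24.1, 24.5, 26.3 and 19.9 FPKM on day 1 and 26.6, 25.4, 28.7 and 23.35 on day 7 in BM, C, B and BC. Over the alternatives that kept all libraries it ran from 0.08 (limma on FPKM as deposited, adjusted p = 0.75) to 0.58 (DESeq2, adjusted p = 0.0064). Fbln1 and Ntn4 were marked in the same way, with bFGF differences that changed by 3.70 and -2.18 from day 1 to day 7 (edgeR). No group had replicates, so no library could be set against others of its own treatment and day.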

How the results depend on the processing

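For the bFGF difference over days 1 to 7, the 3 called members (1 higher, 2 lower) became 5, all lower, with limma on log2(FPKM + 1) and on log2(FPKM + 0.1) and 6 (1 higher, 5 lower) after quantile normalization. On day 1 the 2 called became 1 with DESeq2 size factors, without a filter, at a minimum mean FPKM of 5, with limma at either pseudocount and after quantile normalization. On day 3 the 4 called (1 higher, 3 lower) became 7 (1 higher, 6 lower) after quantile normalization and 5, all lower, with limma as deposited. On day 5 the 4 called (3 higher, 1 lower) became 6 (1 higher, 5 lower) with limma as deposited and stayed 4 (1 higher, 3 lower) after quantile normalization. On day 7 the 4 called (1 higher, 3 lower) became 7, all lower, in each of the 3 limma fits and 2 (1 higher, 1 lower) with the day 7 libraries alone. For the change of the bFGF difference from day 1 to day 7, the 1 called, Lama2, higher, became 3 (2 higher, 1 lower) with DESeq2, 2 higher with DESeq2 size factors, 2 (1 higher, 1 lower) without a filter and 5, all lower and without Lama2, in each of the 3 limma fits. At a minimum mean FPKM of 5 the single call was Hspg2, lower (-0.40). Of all 11272 tested genes, limma on log2(FPKM + 1) called 5700 lower over days 1 to 7 and 3596 on day 3. It called 6320 lower on day 5, 6600 on day 7 and 5775 for the change. After quantile normalization these numbers were 3850, 3128, 4005, 4180 and 3388. Leaving out 1 library at a time gave 3 to 4 called members over days 1 to 7, 0 to 2 on day 1, 2 to 6 on day 3, 3 to 4 on day 5, 2 to 5 on day 7, 0 to 3 for the change and, for time, 7 to 7 without bFGF and 7 to 8 with it.

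Directions turned as follows, in log2 differences with limma on log2(FPKM + 1), on log2(FPKM + 0.1) and after quantile normalization. On day 5 Hspg2 went from 0.04 to -0.41, -0.41 and -0.48, Lama5 from 0.09 to -0.35, -0.35 and -0.49, and Nid1 from 0.06 to -0.39, -0.40 and -0.51. Lamb2 on day 5 went from 0.01 to -0.43 and -0.44 in the first 2. On day 7 Lama5 went from 0.17 to -0.38, -0.38 and -0.61, Lamb1 from 0.20 to -0.33, -0.34 and -0.58, and Lamc1 from 0.01 to -0.52, -0.53 and -0.60. Lama2 on day 7 went from 0.53 to -0.0072 and -0.0077 in the first 2. Quantile normalization alone also turned Lamb1 (-0.10) and Lamc1 (-0.0275) on day 5, Lamc1 over days 1 to 7 (0.09 to -0.24) and the change of Lama5 (0.31 to -0.37). The first 2 fits keep FPKM as deposited, where the median of all genes is itself lower with bFGF.

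Over all genes, CHIR99021 calls went from 38 to 281 with DESeq2, 69 after quantile normalization, 22 without a filter and 24 without day 1, and to between 1 and 28 with 1 library left out. Interaction calls went from 1 to 5 with DESeq2, 2 without day 1 and 0 in the limma fits. With limma on FPKM as deposited, 2267 genes were higher and 5700 lower with bFGF over days 1 to 7, against 3896 and 3817 after TMM. Day 1 calls ran from 145 to 1778 with 1 library left out. Single libraries per condition, and Lama1 and Nid2 counts near 0, limit what can be resolved.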

Other observations

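The wider lists also moved between day 1 and day 7, and the called genes are given here by their edgeR log2 differences without and with bFGF. Of 7 tested components of basement membranes other than laminins, nidogens and perlecan, 6 were higher and 1 lower on day 7 without bFGF. With it, 5 were higher and 1 lower. Among all tested genes 32.3% were higher and 31.5% lower without bFGF, and 35.8% and 39.5% with it. Agrn, the heparan sulfate proteoglycan agrin, was higher by 1.28 without and 1.18 with bFGF. Fbln1 stood at -1.09 without and 2.62 with bFGF, and Ntn4 at 1.17 and -1.002. The edgeR test of the difference between the conditions called both (Fbln1 3.70 ± 0.32, SE, adjusted p = 1.7e-06, and Ntn4 -2.18 ± 0.30, adjusted p = 4.8e-05). These 3 genes were picked after their values were seen.

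Of 8 tested laminin receptors, 6 were higher and 2 lower on day 7 without bFGF, beside 32.3% and 31.5% of all tested genes. With it, 4 were higher and none lower, beside 35.8% and 39.5%. Itga6 stood at -1.05 without and -0.08 with bFGF (adjusted p = 0.47), Itga7 at 0.50 and 1.57, Itgb4 at 0.88 and 1.85 and Dag1 at 0.94 and -0.16 (adjusted p = 0.34). Of 11 tested dystroglycan glycosylation genes, 4 were higher and 3 lower without bFGF, to be set beside the same shares. With it, 9 were lower and none higher, beside 39.5% and 35.8%. Pomk was lower by a log2 difference of -2.41 and Pomgnt2 by -2.29. Of the tested remaining laminin chains, Lama3 was higher by 2.03 without and 2.30 with bFGF.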
